A study of Homo sapiens with 96 samples.

Results

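Flutamide and Hydroxyflutamide are nonsteroidal blockers of the androgen receptor, and Hydroxyflutamide is the metabolite into which the liver turns Flutamide. They were represented by 6 of the 96 arrays of a compendium of androgen receptor modulators, 3 arrays each, chosen by the chemical named in the array's title. All cells were LAPC4, a human prostate cancer line, exposed for 6 h in medium with 0.05% DMSO, and expression was read on Illumina Human HT-12 v4 beadchips. The Flutamide group received 20 uM Flutamide together with 0.33 nM R1881, and the Hydroxyflutamide group received 20 uM Hydroxyflutamide together with 0.33 nM R1881. The androgen control group received 0.33 nM R1881 alone (6 arrays), the vehicle group received DMSO alone (6 arrays), and Bicalutamide, a related antiandrogen drug, was given at 20 uM with 0.33 nM R1881 (3 arrays). No array analysed here held either compound without R1881, so an effect of its own and an effect on the response to R1881 cannot be told apart by treatment group. The labels describe 3 experiments on separate days but do not tie arrays to days, so p-values measure only the spread between these arrays, which may be partly technical.

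The androgen receptor is a transcription factor that moves to the nucleus and binds DNA when it is bound by an androgen, and R1881 (methyltrienolone) is a synthetic androgen that cells hardly metabolise. Flutamide is an anilide that acts mainly as a precursor, and Hydroxyflutamide differs from it by a hydroxyl group on the side chain, binds the receptor more tightly and is regarded as the active drug. Both compete with androgen for the ligand pocket. Hydroxyflutamide is also known to switch on the mutated androgen receptor of another prostate cancer line, LNCaP, whereas LAPC4 is known for a wild-type receptor. Flutamide is in addition a known ligand of the aryl hydrocarbon receptor (AHR), the sensor that induces CYP1A1.

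Values are log2 intensities as the authors deposited them, and array medians all lay between 6.7211 and 6.7212, so a level near that lies in the middle of all probes and its distance from background is not known. Flutamide array 3 stood apart. Its median correlation with the other arrays was 0.843, the fifth lowest of the series, while the other arrays of these 5 groups lay between 0.942 and 0.9765. Some genes that every cell uses were dim in it. RPS14, a ribosomal protein gene, read 9.18 against 13.16 and 13.22 in Flutamide arrays 1 and 2, and GAPDH, a glycolytic enzyme gene, read 10.12 against 13.10 and 13.65. ACTB, the gene of beta-actin, was not dim, at 13.72 in array 3 against 13.84 and 13.66, and the mean of the respiratory chain genes was 11.02 against 11.07 and 11.10. HOXB13, a prostate lineage factor, read 6.80 against 9.53 and 10.39. The calls and the main differences are therefore given both with all arrays and without Flutamide array 3. The arrays also fell into 2 expression profiles that the labels do not name (34 and 62 arrays), which cut across the groups. Flutamide array 1, Hydroxyflutamide array 3, Bicalutamide arrays 1 and 3 and R1881 and DMSO arrays 3 and 6 belonged to the smaller profile. The profiles went unevenly with the number in the array's title. The smaller profile held 11 arrays numbered 1, 0 numbered 2 and 23 numbered 3, and the larger held 21, 32 and 9. Results are given a further time from a fit that carried the profile as a block and left out 6 arrays that stood apart, Flutamide array 3 among them. That fit, called the profile fit here, was added after the data had been seen.

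**Figure D1:**
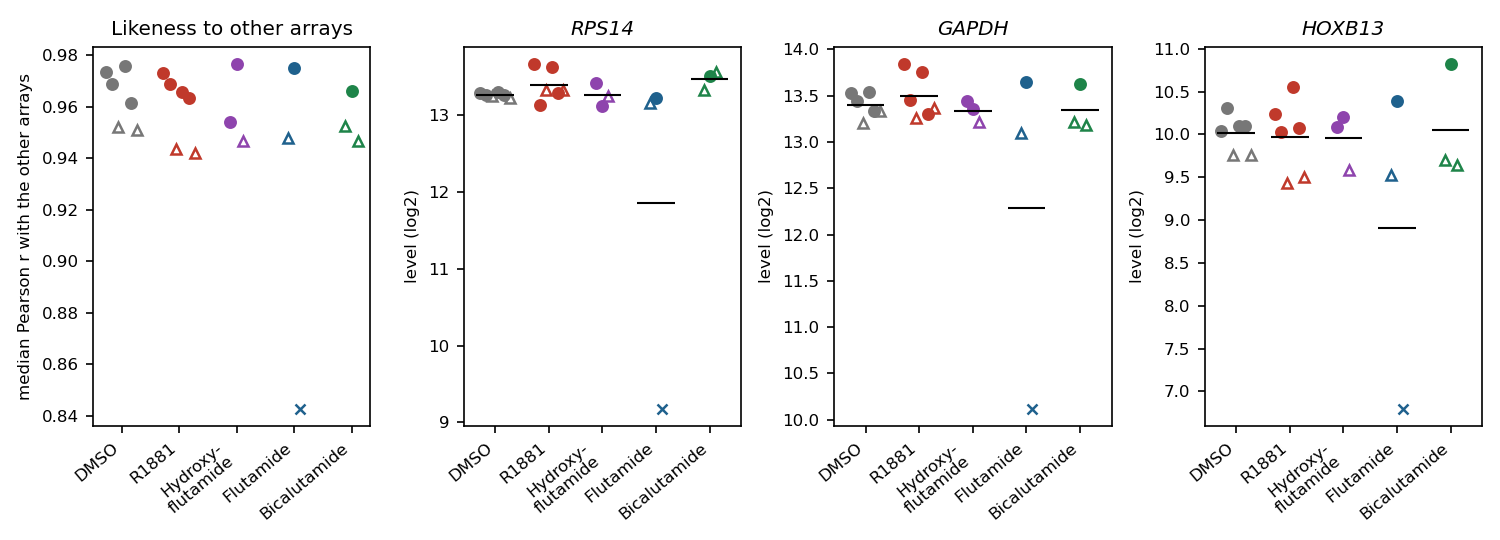
Median Pearson correlation of each array with the other arrays (left) and log2 levels of RPS14, GAPDH and HOXB13 in each array of DMSO, R1881, Hydroxyflutamide, Flutamide and Bicalutamide. Filled circles and open triangles are arrays of the larger and the smaller expression profile, the cross is Flutamide array 3, and lines in the 3 level panels are group means. The cross lies at 0.843, 9.18, 10.12 and 6.80, below all other points of its panel.

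The cells carried prostate luminal markers. FOXA1 lay between 11.46 and 12.71 and EPCAM between 10.23 and 12.15 in the arrays of the 5 groups, and 12 of 14 luminal markers were measured. The mean of the 12 was 9.38 and 9.29 in Flutamide arrays 2 and 1, 9.33 to 9.47 under Hydroxyflutamide and 9.37 to 9.71 under R1881, but 8.64 in Flutamide array 3. The basal marker KRT5 and the leukocyte marker PTPRC stayed at 6.34 to 6.78 in all of these arrays, in the middle of all probes. Other members of their lists were brighter under R1881, with means of 7.98 for ITGB4 and 7.74 for KRT15 (basal) and 7.76 for HLA-DRA (leukocyte). The list means under R1881 were 6.88 to 7.18 (basal) and 6.90 to 7.03 (leukocyte). ACTA2, on a stroma list, averaged 9.95 under R1881, and the luminal keratins KRT8 and KRT18 averaged 8.42 and 7.97. KLK3, which encodes prostate-specific antigen, was also dim, at 6.54 to 7.03 in all 5 groups, and R1881 did not raise it past the test here.

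The first comparison asked which genes Flutamide changed in the presence of R1881. With all arrays 10 of 18571 genes passed an adjusted p of 0.05, all lower (0.0538% of genes), and 0 were higher (0%), with 1034 genes at an unadjusted p under 0.05. Of the 10, 8 were among the 22 genes that R1881 itself raised over DMSO (0.118% of genes): SGK1, FKBP5, NDRG1, C1orf116, NPPC, UGT2B11, DIO2 and ENDOD1. RPL8 and RPS14, the other members, are ribosomal protein genes with their lowest value in Flutamide array 3. RPL8 read 11.89, 11.78 and 10.31 in Flutamide arrays 1 to 3 against 12.05 to 12.68 under R1881. Without Flutamide array 3 neither passed, and 6 genes were called lower (0.0323%), all of them raised by R1881: UGT2B11, FKBP5, DIO2, NDRG1, SGK1 and S100P. Leaving out Flutamide array 1 or 2, which keeps array 3, gave 132 and 226 genes. The profile fit called 50 lower (0.269%) and 12 higher (0.0646%), and 46 of the 50 were among the 137 genes it found raised by R1881. In cultures measured in bulk, fewer cells of a kind and less RNA per cell cannot be told apart. These comparisons share the 6 R1881 arrays with the selection of the raised genes, so that the direction of these genes is not independent of their choice. R1881 and DMSO arrays 4 to 6 may repeat arrays 1 to 3, and the 6 controls of each kind may then stand for 3. With same-numbered controls averaged, R1881 against DMSO gave 5 calls instead of 23, and Flutamide against R1881 gave 5 instead of 10 (SGK1, FKBP5, NDRG1, UGT2B11 and DIO2).

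SGK1, a serum- and steroid-induced kinase that regulates ion channels, had the largest fold of the 10 genes. It read 11.47 to 12 under R1881 (median 11.83) and 8.82 to 8.98 under DMSO (median 8.93). Flutamide arrays 1 to 3 read 9.47, 9 and 9.25, below every R1881 array and above every DMSO array. The difference from R1881 was -2.54 ± 0.43 (log2, SE), or 5.83-fold lower (adjusted p = 0.000482), and without Flutamide array 3 it was -2.55 ± 0.50 (adjusted p = 0.0102). A pair of other SGK1 probes of comparable brightness gave -3.34 and -2.95, and another, dim probe gave 0.06.

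FKBP5 encodes a co-chaperone of steroid receptors and is a standard reporter of androgen action. Its levels were 10.95 to 11.62 under R1881 (median 11.31), 9.29 to 9.46 under DMSO (median 9.37), and 9.13, 9.54 and 8.73 in Flutamide arrays 1 to 3. The Flutamide arrays lay around the DMSO level and below all R1881 arrays. FKBP5 was 4.42-fold lower than under R1881 (-2.15 ± 0.28, adjusted p = 8.4e-07), and 3.84-fold lower without Flutamide array 3 (adjusted p = 0.000711).

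UGT2B11 belongs to the glucuronosyltransferases, which conjugate steroids for excretion. It read 8.19 to 8.61 under R1881 (median 8.57), 6.71 to 6.88 under DMSO (median 6.78) and 6.79, 6.84 and 7.08 under Flutamide. The fall of 1.58 on the log2 scale against R1881 (SE 0.13) was 2.99-fold, with the smallest adjusted p of the comparison (7.1e-14, and 4.36e-12 without Flutamide array 3). UGT2B11 and its near relative UGT2B28 are close in sequence, and cross-hybridisation between them was not tested. UGT2B28 read 6.89 to 7.69 under R1881 and 6.56, 6.52 and 6.66 under Flutamide (adjusted p = 0.0715).

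DIO2, the deiodinase that activates thyroid hormone, was 2.67-fold lower under Flutamide (-1.42 ± 0.23, adjusted p = 0.000283; -1.53 without Flutamide array 3, adjusted p = 0.00156), at 6.87, 6.80 and 7.17 against 8.25 to 8.56 under R1881. NPPC, which encodes the precursor of a natriuretic peptide (CNP), read 7.02, 7.22 and 6.65 against 8.32 to 9.14 and was 3.52-fold lower (adjusted p = 0.00675). Its call was lost without Flutamide array 3 (adjusted p = 0.278) and returned in the profile fit (6.02e-07). C1orf116, also known as SARG for its androgen regulation, read 8.07, 9.02 and 9.29 against 9.99 to 11.13 and was 3.83-fold lower (adjusted p = 0.0358, and 0.0673 without Flutamide array 3). NDRG1, an androgen- and hypoxia-induced gene, read 8.71, 9.06 and 9.95 against 10.88 to 11.87 under R1881 and 8.68 to 10.24 under DMSO, and fell 4.24-fold (adjusted p = 0.00223, and 0.00161 without Flutamide array 3). In NDRG1 and C1orf116 array 3 of Flutamide was the highest of the group, while in FKBP5 and NPPC it was the lowest.

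For S100P, a calcium-binding protein gene, the call was gained without Flutamide array 3. Flutamide arrays 1 and 2 read 7.12 and 7.43, within the DMSO range of 7.12 to 7.64, but array 3 read 8.60, within the R1881 range of 8.46 to 9.24. The difference from R1881 was -1.09 ± 0.28 (adjusted p = 0.168) with all arrays and -1.53 ± 0.31 (adjusted p = 0.0133) without array 3. KLK2, RHOU and CEBPD were likewise near the DMSO level in arrays 1 and 2 and near the R1881 level in array 3. KLK2, a kallikrein protease gene of the prostate, read 6.87, 7.04 and 7.97 against 7.89 to 8.69 under R1881.

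Under Hydroxyflutamide 1 gene was called lower than under R1881 (0.00538%) and 1 higher (0.00538%), with 299 at an unadjusted p under 0.05. The lower gene was UGT2B11, at 7.49, 7.43 and 7.39, below every R1881 array and above every DMSO array (-1.05 ± 0.13, 2.06-fold, adjusted p = 8.4e-07). The higher gene was CT47A6, a cancer/testis antigen gene, which rested on 1 array: Hydroxyflutamide arrays 1 to 3 read 7.38, 6.77 and 6.83, against 6.65 to 6.74 under R1881 (0.32 ± 0.06, adjusted p = 0.00975). Without Hydroxyflutamide array 1 UGT2B11 was the only gene called, and without array 2 or 3 it was 24 and 12 genes. The next genes by adjusted p included DIO2 and S100P, both at 0.0917. DIO2 read 7.36, 7.32 and 7.20, and S100P read 7.95, 7.46 and 7.21. The profile fit called 26 lower (0.14%) and 11 higher (0.0592%). Of the 26, 23 were among the genes raised by R1881 in that fit, with SGK1, FKBP5, C1orf116, NDRG1, S100P, HPGD, KCNK13, CLDN8 and SPDEF among them. Both comparisons share the R1881 arrays, so this overlap is not independent of the choice of the raised genes. Of the 11 higher, 9 were not among the genes it found lowered by R1881, and the dim genes CT47A6, SOX2, PIK3R5 and FLG2, chosen here after their values were seen, again had their high value in Hydroxyflutamide array 1 (7.33 for SOX2, 7.50 for PIK3R5 and 7.19 for FLG2, against 6.58 to 6.77 in arrays 2 and 3). SGK1 read 9.84, 10.85 and 10.71 under Hydroxyflutamide, between the R1881 and DMSO ranges, and its difference from R1881 was -1.32 ± 0.43 with all arrays (adjusted p = 1) and -1.32 ± 0.14 in the profile fit (adjusted p = 2.82e-09).

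**Figure D2:**
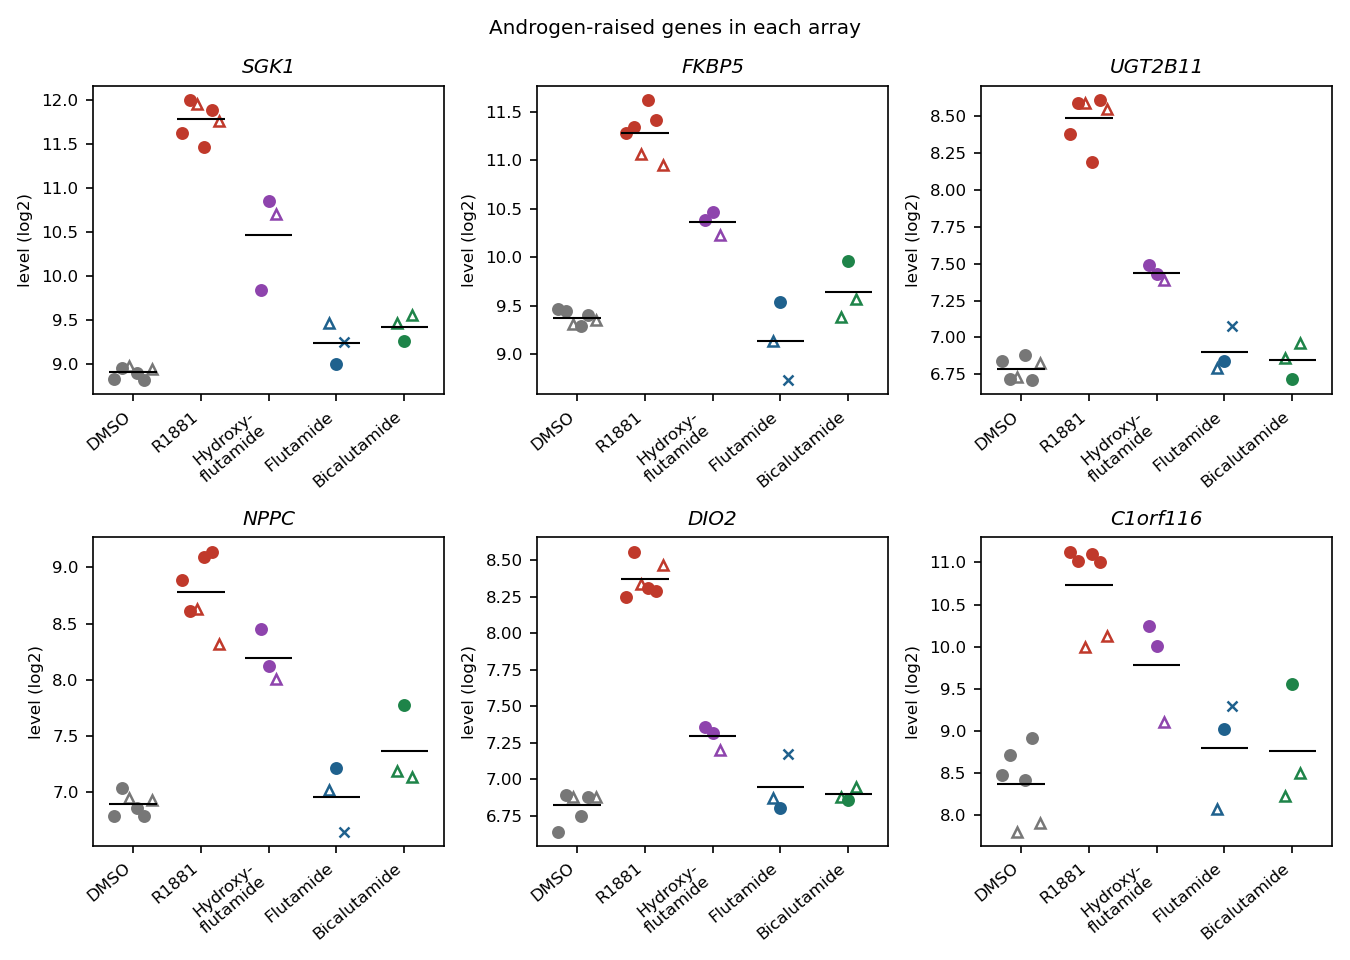
Log2 levels of SGK1, FKBP5, UGT2B11, NPPC, DIO2 and C1orf116 in each array of the 5 groups, with symbols as in the plot of Flutamide array 3 and lines at group means. In SGK1, FKBP5, UGT2B11, NPPC and DIO2 the 3 Hydroxyflutamide arrays lie above all 3 Flutamide arrays and above the DMSO arrays.

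The direct comparison of the parent drug with its metabolite, at 20 uM of each and with no control array in the contrast, called 0 genes with all arrays (0%) and 0 without Flutamide array 3, with 696 and 172 genes at an unadjusted p under 0.05. Leaving out Flutamide array 1 or 2 gave 13 and 14 calls, and leaving out Hydroxyflutamide array 2 or 3 gave 4 each. The profile fit called 3 genes, all lower under Flutamide (0.0162%), and they were SGK1, FKBP5 and UGT2B11. SGK1 was 2.40-fold lower under Flutamide than under Hydroxyflutamide (-1.26 ± 0.19, adjusted p = 0.000102, and 0.000263 when adjusted over all genes of the 3 pairs formed by these compounds and Bicalutamide). FKBP5 was 1.97-fold lower (-0.98 ± 0.16, adjusted p = 0.00118, and 0.00236 over the 3 pairs), and UGT2B11 was 1.55-fold lower (-0.63 ± 0.12, adjusted p = 0.0135, and 0.0242 over the 3 pairs). With all arrays the same differences were -1.22 for SGK1 (95% interval -2.21 to -0.24), -1.23 for FKBP5 (-1.87 to -0.58) and -0.54 for UGT2B11 (-0.84 to -0.23). Within the smaller and the larger profile SGK1 differed by -1.24 and -1.34, FKBP5 by -1.10 and -0.88, and UGT2B11 by -0.61 and -0.62. Each value came from 1 Flutamide array, since array 3, of the larger profile, was left out. The smaller profile also held only 1 Hydroxyflutamide array. These are the arrays of the profile fit again, so the values describe that fit and add no separate support. FKBP5 in Hydroxyflutamide arrays 1 to 3 was 10.38, 10.47 and 10.23, a narrow band in the middle between DMSO and R1881.

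Several other genes separated the compounds in level without passing the test. NPPC read 8.45, 8.12 and 8.01 under Hydroxyflutamide and at most 7.22 under Flutamide, a difference of -1.23 (95% interval -2.04 to -0.42), with an adjusted p of 0.196 in the profile fit. HPGD, the enzyme that inactivates prostaglandins, read 7.38, 7.38 and 7.39 under Hydroxyflutamide and 6.98, 6.92 and 6.86 under Flutamide (-0.46, -0.93 to 0.01). C1orf116 read 10.25, 10.01 and 9.10 under Hydroxyflutamide, where array 3 overlapped the Flutamide range. For CLDN8, a tight junction gene, the compounds did not differ past the test: Flutamide arrays read 7.09, 7.09 and 7.62 and Hydroxyflutamide arrays 7.05, 7.25 and 7.18, and the 95% interval of the difference ran from -0.52 to 0.73.

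The promoters shown are those of the 3 genes called between Flutamide and Hydroxyflutamide in the profile fit, the only 1 of the 3 fits to call any. They are shown because the compounds compete for a factor that binds DNA, with that of CYP1A1 as the standard AHR target. The sequences are RefSeq's for GRCh38.p14, the 250 bases before the outermost listed start on the minus strand, 5′ to 3′: chr6:134318113-134318362 for SGK1, chr6:35728584-35728833 for FKBP5, chr4:69214749-69214998 for UGT2B11 and chr15:74725529-74725778 for CYP1A1. The half-site of the androgen receptor was searched as TGTTCT on both strands. The core of the AHR site was searched as GCGTG on both strands, and capitals mark a match to either. The pair of motifs share no overlap in these windows.
SGK1: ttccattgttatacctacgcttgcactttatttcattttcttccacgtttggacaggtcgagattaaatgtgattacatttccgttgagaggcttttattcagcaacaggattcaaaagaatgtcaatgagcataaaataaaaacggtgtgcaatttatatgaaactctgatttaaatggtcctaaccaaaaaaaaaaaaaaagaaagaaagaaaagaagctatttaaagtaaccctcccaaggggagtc
FKBP5: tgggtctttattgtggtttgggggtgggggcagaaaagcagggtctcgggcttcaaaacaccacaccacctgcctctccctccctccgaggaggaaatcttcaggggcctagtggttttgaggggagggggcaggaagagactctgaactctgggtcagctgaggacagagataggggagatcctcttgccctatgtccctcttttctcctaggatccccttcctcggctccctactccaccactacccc
UGT2B11: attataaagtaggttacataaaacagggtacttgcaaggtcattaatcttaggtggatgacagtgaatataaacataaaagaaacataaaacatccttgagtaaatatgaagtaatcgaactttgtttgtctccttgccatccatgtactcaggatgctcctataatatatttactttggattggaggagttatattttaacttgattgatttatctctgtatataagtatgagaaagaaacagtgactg
CYP1A1: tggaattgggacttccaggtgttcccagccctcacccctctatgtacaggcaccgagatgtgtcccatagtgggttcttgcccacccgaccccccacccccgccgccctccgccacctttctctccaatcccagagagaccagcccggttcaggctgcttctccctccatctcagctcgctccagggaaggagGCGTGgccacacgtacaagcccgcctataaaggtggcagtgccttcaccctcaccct
None of the 3 genes called in the profile fit held either motif in the windows printed, and CYP1A1 held 1 AHR core. SGK1 has 3 listed starts and FKBP5 has 2, and each held an AHR core at a start not printed here. Which start these cells use was not tested. Of the 22 genes raised by R1881, 18 had promoters in the table with 28 starts in all. The half-site was in 0 of the 28, against 12.4% of all 35116 listed starts, and the AHR core was in 10 of the 28 (35.7%), against 32.2% of all. This says only that these letters are not in these windows.

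The 22 genes raised by R1881 showed how much of the androgen response was left under each compound. All 22 were lower than under R1881 in both groups, with a median change of -1.07 under Flutamide and -0.59 under Hydroxyflutamide, beside medians of 0.01 and -0.01 over all genes. Expressed as the part of the R1881-minus-DMSO difference that remained, the median gene kept 8.08% under Flutamide (6.98% in arrays 1 and 2), 49.5% under Hydroxyflutamide and 10.4% under Bicalutamide. By array, the median over the 22 genes was 2.72%, 4.17% and 22.7% in Flutamide arrays 1 to 3, 41.4%, 45.3% and 42.2% in Hydroxyflutamide arrays 1 to 3, and 4.61%, 12% and 10.2% in Bicalutamide arrays 1 to 3. The Hydroxyflutamide arrays thus lay close together and above all Flutamide arrays, and Flutamide array 3 lay between them and the other Flutamide arrays. Since the R1881 arrays both chose the genes and served as the upper end, these percentages describe the groups and carry no test.

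**Figure D3:**
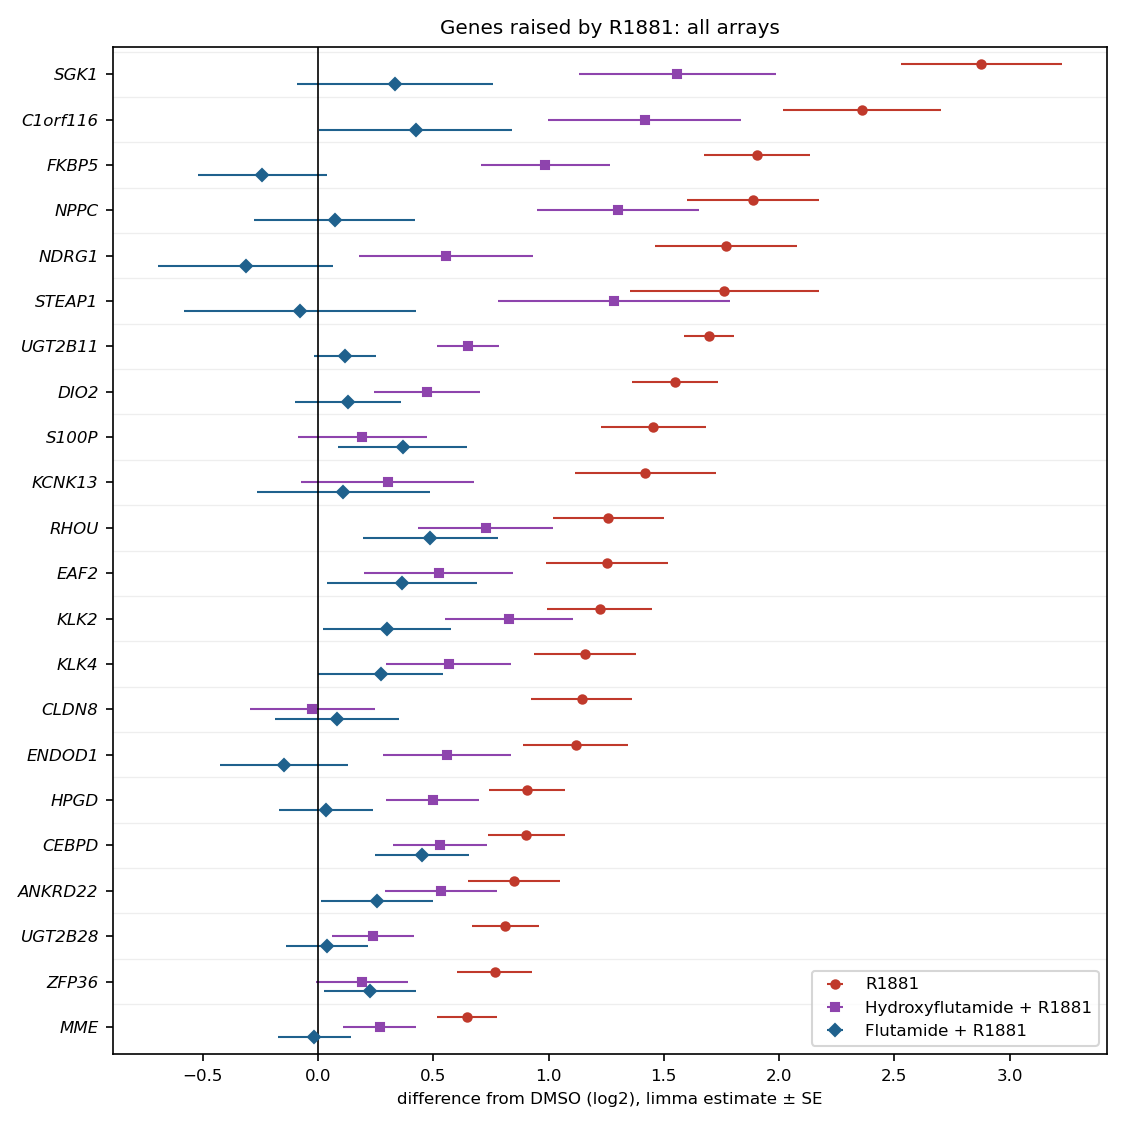
Differences from DMSO (log2, limma estimate ± SE, all arrays) of the 22 genes raised by R1881, for R1881 alone (circles, n = 6), Hydroxyflutamide with R1881 (squares, n = 3) and Flutamide with R1881 (diamonds, n = 3). Hydroxyflutamide lies between Flutamide and R1881 in 19 of 22 genes, and lies below Flutamide in S100P, CLDN8 and ZFP36.

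Flutamide minus Hydroxyflutamide was negative in 19 of the 22 genes with all arrays (median -0.32, against 0.02 over all genes) and in 21 without Flutamide array 3 (median -0.46). Every Flutamide array lay below every Hydroxyflutamide array in 7 of the 22 (SGK1, FKBP5, NPPC, UGT2B11, DIO2, HPGD and MME), against 1.76% of all genes. MME encodes neprilysin, a peptidase of the cell surface. With Flutamide arrays 1 and 2 only it was 15 of the 22, against 4.85% of all genes. Every Flutamide array lay below every R1881 array in 16 of the 22 (0.77% of all genes), and every Hydroxyflutamide array did in 13 (0.84%). The same R1881 arrays chose the 22 genes for their high level, which favours these last counts, so nothing is read from them.

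The share left under Hydroxyflutamide was uneven across genes. It was highest for STEAP1, a metalloreductase gene of prostate epithelium (72.8%), for NPPC (69.0%), KLK2 (67.9%), ANKRD22 (62.7%) and C1orf116 (60.1%). STEAP1 read 8.31, 8.98 and 9.66 under Hydroxyflutamide, 8.64 to 10.15 under R1881 and 8.47, 7.66 and 6.75 under Flutamide. It was lowest for CLDN8 (-2.1%), S100P (13.3%), KCNK13, a potassium channel gene (21.3%), and ZFP36, an mRNA decay factor (24.9%). In these 4 genes Flutamide minus Hydroxyflutamide was 0.11 for CLDN8, 0.17 for S100P (95% interval -0.47 to 0.82), -0.19 for KCNK13 (-1.06 to 0.67) and 0.04 for ZFP36 (-0.42 to 0.50), none past the test. CLDN8 fell against R1881 by 1.17 (SE 0.27) under Hydroxyflutamide and by 1.06 (SE 0.27) under Flutamide, neither past the test with all arrays (adjusted p = 0.123 and 0.168) and both past it in the profile fit (4.61e-06 and 1.71e-05). KCNK13 read 6.88, 7.36 and 7.49 under Hydroxyflutamide and 7.28, 7.13 and 6.75 under Flutamide against 7.95 to 8.65 under R1881. SPDEF, a luminal transcription factor outside the 22 that was chosen after its values were seen, read 9.42, 8.88 and 8.28 under Hydroxyflutamide and 8.06, 8.69 and 9.04 under Flutamide, around the DMSO range of 8.25 to 9.34 and below the R1881 range of 9.57 to 10.21. It was called lower under both compounds only in the profile fit (Hydroxyflutamide -1.04 ± 0.15, adjusted p = 8.71e-06; Flutamide -1.41 ± 0.18, adjusted p = 1.06e-07).

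A wider list of 42 androgen-induced genes, 39 of them measured, gave the same order in the same arrays. Its mean level was 7.89 to 8.02 in the DMSO arrays, 8.01 to 8.13 under Flutamide, 8.06 to 8.12 under Bicalutamide, 8.27 to 8.38 under Hydroxyflutamide and 8.62 to 8.76 under R1881. The Flutamide, Hydroxyflutamide and R1881 ranges did not overlap. Flutamide array 3 was the highest of its group on this mean, at 8.13 against 8.01 and 8.02 in arrays 1 and 2. The list shares genes with those raised by R1881, SGK1, FKBP5, NDRG1 and C1orf116 among them. It was also chosen with earlier results of these data known. The order on this list is therefore not independent of the order seen in the genes raised by R1881. Against R1881, 4 of the 39 were lower under Flutamide with all arrays (0.0538% of all genes), 4 without Flutamide array 3 (0.0323%) and 17 in the profile fit (0.269%). The median change was -0.41, -0.48 and -0.49, beside 0.008, -0.0042 and 0.0026 over all genes. Under Hydroxyflutamide 0 were lower with all arrays (0.00538% of all genes) and 6 in the profile fit (0.14%), with a median of -0.22 beside -0.0071 over all genes. SLC45A3, a prostate transporter gene, read 7.69, 7.99 and 7.53 under Flutamide and 8.24, 8.61 and 8.31 under Hydroxyflutamide, against 8.45 to 9.04 under R1881. TMPRSS2, the protease gene often fused in prostate cancer, read 10.62 to 11.10 under Flutamide and 10.84 to 11.10 under Hydroxyflutamide, and both ranges overlapped the R1881 range of 10.95 to 11.75. KLK4, a kallikrein gene, read 9.64, 10.18 and 10.63 under Flutamide and 10.82, 10.17 and 10.33 under Hydroxyflutamide against 10.69 to 11.24 under R1881.

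The comparison with DMSO asked what remained above vehicle. With all arrays 0 genes were called under Hydroxyflutamide (0%) and 1 under Flutamide (0.00538%), the ribosomal gene RPL8, which was lower and was not called without Flutamide array 3. At an unadjusted p under 0.05 there were 266 and 814 genes. RPL8 was also lost without DMSO array 1, 4 or 6, while leaving out Flutamide array 1 or 2 gave 70 and 147 genes and leaving out Hydroxyflutamide array 2 or 3 gave 9 and 6. Of the 22 genes raised by R1881, every Hydroxyflutamide array lay above every DMSO array in 15, against 0.7% of all genes. For Flutamide this held in 1 (SGK1), against 0.684%. The same DMSO arrays took part in choosing the 22 genes, so counts of them above DMSO are not independent of that choice. The median change from DMSO was 0.54 under Hydroxyflutamide and 0.12 under Flutamide. UGT2B11 (0.65 ± 0.13, 1.57-fold above DMSO) and CT47A6, whose high value was in Hydroxyflutamide array 1, came closest to the threshold under Hydroxyflutamide, each with an adjusted p of 0.0636. The profile fit called 21 genes higher (0.113%) and 3 lower (0.0162%) under Hydroxyflutamide, and 10 of the 22 raised genes were among the 21, with SGK1 at 2.95-fold (adjusted p = 1.41e-11), C1orf116 at 2.67-fold (5.55e-07), NPPC at 2.46-fold (1.28e-05), STEAP1 at 2.43-fold (0.00251) and FKBP5 at 1.98-fold (6.67e-07) above DMSO. Under Flutamide it called 1 gene higher and 1 lower (0.00538% each), and none of the 22 raised genes. Named after the values were seen, the lower genes under Hydroxyflutamide were DDIT4, PCDH7, a protocadherin gene (1.45-fold, adjusted p = 0.00108), and SMAD6, an inhibitor of BMP signals (1.30-fold, adjusted p = 0.0197). The genes under Flutamide were DDIT4 and the zinc finger gene ZNF385B, which read 10.14, 10.49 and 10.93 under Flutamide against 9.54 to 9.98 under DMSO (1.49-fold, adjusted p = 0.0169).

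Bicalutamide, at the same dose and time, served as a further antiandrogen. Flutamide did not differ from it past the test in any of the 3 fits (0 genes, 0%), with 643 genes at an unadjusted p under 0.05 with all arrays, but 13 and 18 were called without Flutamide array 1 or 2. The intervals of the difference bound what could have been missed: for SGK1 it ran from -1.17 to 0.80, for FKBP5 from -1.15 to 0.14 and for UGT2B11 from -0.25 to 0.36. Without Flutamide array 3 it ran from -1.30 to 0.92 for SGK1, from -1.02 to 0.41 for FKBP5 and from -0.38 to 0.31 for UGT2B11. Hydroxyflutamide differed from Bicalutamide in 0 genes with all arrays (0%, 217 at an unadjusted p under 0.05), in 5 and 4 without Hydroxyflutamide array 2 or 3, and in 2 in the profile fit, both higher (0.0108%). These were SGK1 (1.11 ± 0.17, 2.16-fold, adjusted p = 0.000175, and 0.000263 over the 3 pairs) and UGT2B11 (0.61 ± 0.11, 1.52-fold, adjusted p = 0.00488, and 0.00732 over the 3 pairs). Of the 22 raised genes, 21 were higher under Hydroxyflutamide than under Bicalutamide (median 0.41), while Flutamide was higher than Bicalutamide in 12 and lower in 10 (median 0.04).

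With all arrays 0 genes were called higher under Flutamide than under R1881, and the profile fit called 12 (0.0646%). Of these, 10 were among the 46 genes that it found lowered by R1881 (0.248% of all genes), and since both comparisons share the R1881 arrays, nothing is read from this count. The genes named next were chosen after their values were seen. SYTL2, a vesicle trafficking gene, read 7.92 to 8.36 under R1881 and 8.58 to 8.88 under DMSO, against 9.08, 8.92 and 8.86 under Flutamide and 8.62, 8.42 and 8.51 under Hydroxyflutamide. Its rise under Flutamide was 0.83 ± 0.11 in the profile fit (1.77-fold, adjusted p = 2.46e-07), and the Hydroxyflutamide arrays lay between R1881 and Flutamide (0.39 ± 0.09, adjusted p = 0.0499). Other, dimmer SYTL2 probes did not show it, at -0.045 and 0.032 for Flutamide minus R1881 with all arrays. BAMBI, a decoy receptor that dampens TGF-beta signals, read 10.35 to 11.13 under R1881, 11.64, 11.78 and 12.34 under Flutamide and 11.92, 11.39 and 11.45 under Hydroxyflutamide, and was called under both compounds (adjusted p = 0.00593 and 0.00964). TNFSF10, which encodes the death ligand TRAIL, read 8.74 to 9.36 under R1881 and 10.34, 9.72 and 9.68 under Flutamide (0.87 ± 0.20, adjusted p = 0.0263). BMP2, a growth factor, and its classical targets ID1 and ID3 were also called under Flutamide (adjusted p = 0.05, 0.043 and 0.0479), although ID3 was not among the genes lowered by R1881. BMP2 read 7.60, 8 and 7.51 in Flutamide arrays 1 to 3, ID1 read 10.31, 10.96 and 9.17, and ID3 read 10.54, 10.84 and 7.09, so that the array left out of that fit held the lowest value of each.

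DDIT4, a stress-induced inhibitor of mTORC1 that is also a glucocorticoid target, was lower under both compounds than under R1881 and lower than under DMSO. It read 10.19 to 10.78 under R1881 (median 10.38), 10.18 to 10.71 under DMSO (median 10.39), 9.71, 9.63 and 9.17 under Flutamide, 9.68, 9.52 and 9.68 under Hydroxyflutamide and 9.98, 9.49 and 10.02 under Bicalutamide. No array of the 3 antiandrogens overlapped the 12 control arrays. DDIT4 was not called between R1881 and DMSO in any of the 3 fits. With all arrays the difference from R1881 was -0.96 ± 0.28 under Flutamide and -0.83 ± 0.28 under Hydroxyflutamide, and neither passed (adjusted p = 0.276 and 1). In the profile fit both passed against R1881 (1.73-fold, adjusted p = 0.000441, and 1.78-fold, 9.87e-06) and against DMSO (1.68-fold, 0.0169, and 1.73-fold, 5.56e-05). The compounds did not differ from each other in DDIT4 past the test (-0.12, 95% interval -0.76 to 0.51). DDIT4 was chosen here after its values were seen.

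Of 17 genes of a glucocorticoid-response list, which overlaps with androgen targets, Flutamide lowered 2 against R1881 both with all arrays (0.0538% of all genes) and without Flutamide array 3 (0.0323%), which were FKBP5 and SGK1, and 7 in the profile fit (0.269%). The median change was -0.43, -0.55 and -0.57. Hydroxyflutamide lowered 0 with all arrays (0.00538%) and 5 in the profile fit (0.14%), with a median of -0.37. The list mean was 9.19 to 9.48 under R1881, 8.60 to 8.85 under DMSO, 8.59 to 8.77 under Flutamide and 8.64 to 8.83 under Bicalutamide. Under Hydroxyflutamide it was 8.83 to 9.04, so that the ranges of all 3 antiandrogens overlapped that of DMSO. For Hydroxyflutamide the overlap rested on array 3, at 8.83, while arrays 1 and 2 were at 9.04 and 8.97.

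The mean level of the genes of cholesterol synthesis and uptake lay below both controls under all 3 antiandrogens, while 1 of the genes passed the test of Flutamide against R1881, in 1 of the 3 fits. This mean of the 15 measured genes of 20 was 8.90 to 9.10 under DMSO, 8.91 to 9.16 under R1881, 8.61 to 8.80 under Hydroxyflutamide, 8.56 to 8.82 under Bicalutamide and 8.44 to 8.53 under Flutamide. The Flutamide range lay below the others, and the Bicalutamide range covered that of Hydroxyflutamide. The median change against R1881 was -0.59 under Flutamide (14 of 15 negative, and -0.55 without Flutamide array 3) and -0.31 under Hydroxyflutamide (13 of 15 negative), beside 0.008 and -0.0071 over all genes, and 0 passed with all arrays or without Flutamide array 3. HMGCS1, which makes the precursor of mevalonate, read 10.55 to 11.20 under R1881, 9.63, 9.88 and 11.20 under Flutamide and 10.62, 10.36 and 10.35 under Hydroxyflutamide. It was called lower under Flutamide in the profile fit (-1.13 ± 0.26, adjusted p = 0.0155), where array 3, the array at the R1881 level, was left out. The rest did not follow array 3 in 1 direction, since DHCR7, the last enzyme of the pathway, read 9.04, 9.87 and 7.33. ABCG1, which exports sterols, read 7.15 to 7.42 under R1881, 7.65, 7.85 and 8.88 under Flutamide, 7.90, 8.19 and 8.13 under Bicalutamide and 7.29, 7.48 and 7.42 under Hydroxyflutamide. Flutamide was 1.79-fold above R1881 (0.84 ± 0.19, adjusted p = 0.0502), and 1.38-fold without array 3 (adjusted p = 1). The other, dimmer ABCG1 probes gave 0.108, -0.038, 0.038 and 0.259 with all arrays. The brightest of these gave 0.444 without array 3.

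**Figure D4:**
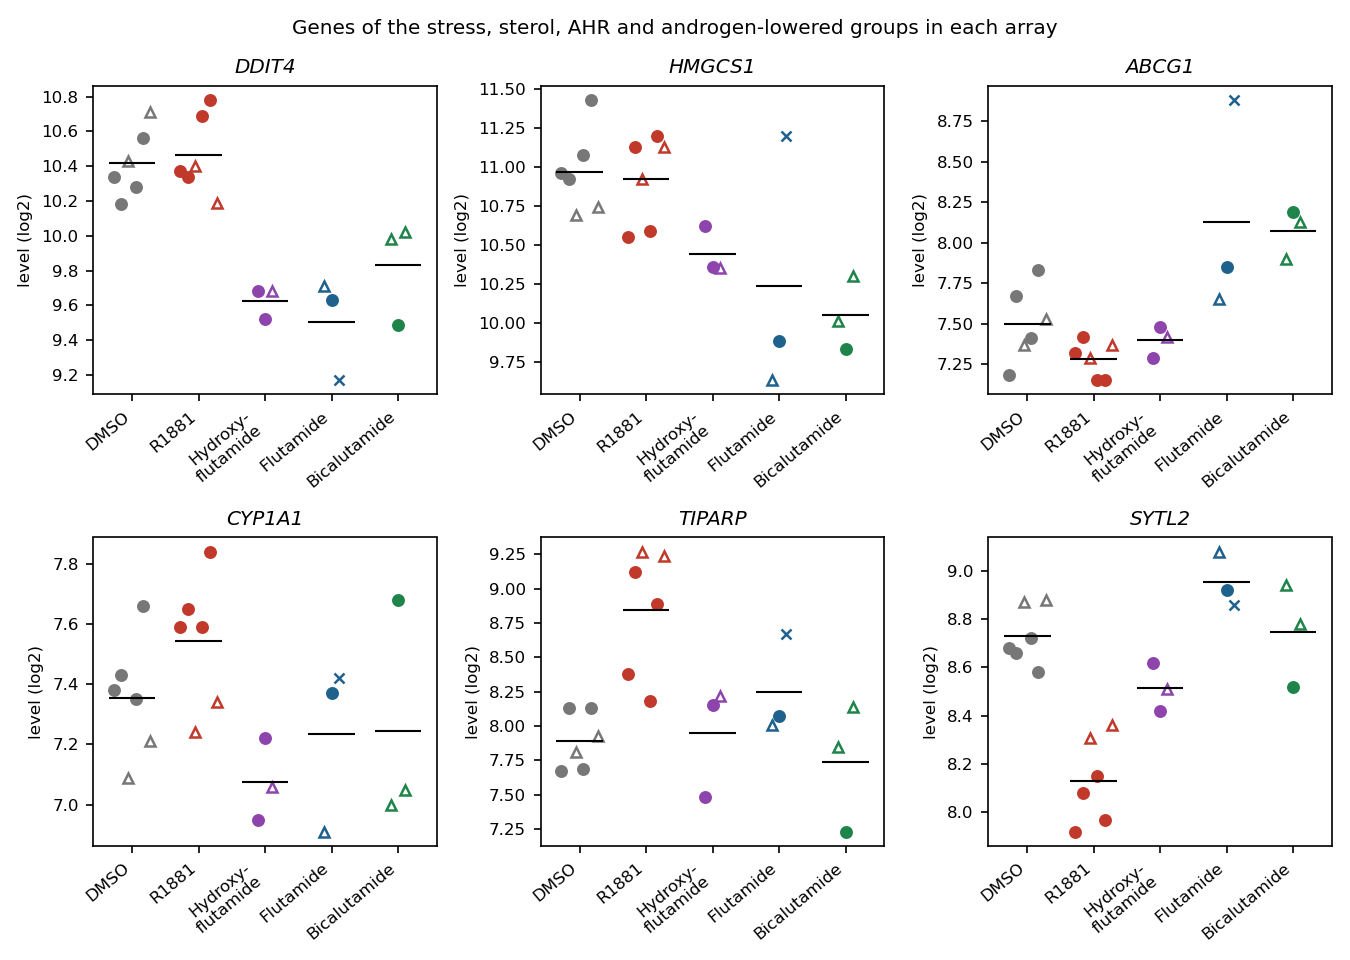
Log2 levels of DDIT4, HMGCS1, ABCG1, CYP1A1, TIPARP and SYTL2 in each array of the 5 groups, with symbols as in the plot of Flutamide array 3 and lines at group means. DDIT4 lies below 10.1 in every antiandrogen array and above it in every DMSO and R1881 array, and CYP1A1 is not above the controls under either compound.

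No AHR target was called. The list had 13 measured genes, which included AHR itself and its partner ARNT beside the targets. Of the 13, 0 passed in any of the comparisons of the compounds with R1881 or with each other, in any of the 3 fits. The median change of the list from R1881 was 0.02 under Flutamide (-0.05 without Flutamide array 3) and -0.01 under Hydroxyflutamide. CYP1A1 read 6.91, 7.37 and 7.42 under Flutamide, 6.95, 7.22 and 7.06 under Hydroxyflutamide, 7.24 to 7.84 under R1881 and 7.09 to 7.66 under DMSO. Its difference from DMSO under Flutamide was -0.12, with a 95% interval from -0.85 to 0.61, and without Flutamide array 3 it was -0.22, from -1.06 to 0.63. At this precision a rise of more than 0.63 on the log2 scale lies outside both intervals. CYP1B1 read 6.62 to 6.88 under Flutamide and AHRR 6.57 to 6.61, both in the middle of all probes. TIPARP, which AHR and other receptors induce, read 8.01, 8.07 and 8.67 under Flutamide and 7.48, 8.15 and 8.22 under Hydroxyflutamide, against 8.18 to 9.27 under R1881 and 7.67 to 8.13 under DMSO.

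Of 10 genes listed for the metabolism of Flutamide, 8 were measured and 0 were called. CYP1A2, the main enzyme that hydroxylates Flutamide in liver, read 6.81, 6.80 and 7.71 under Flutamide and 6.63 to 7.05 under R1881. CYP3A4 read at most 6.75 in all 5 groups, and CES2, a carboxylesterase gene, lay between 9.39 and 10.29. The lists of ATF4, NRF2, endoplasmic reticulum chaperone, heat shock, p53, mitosis and respiratory chain genes held 0 calls against R1881 with all arrays under either compound. In the profile fit DDIT4 was the only call on them. The mitosis genes were higher under Flutamide than under Hydroxyflutamide in 15 of 20 (median 0.19, beside 0.02 over all genes, none called). The list means were 9.28 to 9.30 under Flutamide and 8.95, 9.27 and 9.19 in Hydroxyflutamide arrays 1 to 3, so array 1 was the lowest. The Flutamide means lay within the ranges of R1881 (9.04 to 9.30), DMSO (9.25 to 9.40) and Bicalutamide (9.24 to 9.35).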

How the data were processed

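Expression was measured on Illumina Human HT-12 v4 beadchips scanned with iScan control software 3.3.28, per the submitters' processing notes, which also name limma. The authors deposited log2 values per probe for 96 arrays, and the background correction and normalization behind them are not given in the sources used here. The values ran from 6.32 to 14.15, with array medians of 6.7211 to 6.7212, and 191 values were missing. Of 48107 probes, 30113 had 1 gene symbol in the platform table, 8 had several and 17986 were not listed. A probe stayed in where it exceeded the 50th percentile of its array on 3 arrays or more, and the brightest kept probe stood for each of 18571 genes.

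Groups came from the array titles. Differences were fitted with limma 3.58.1 in R 4.3.3 over all 96 arrays with a mean per group, and p-values were adjusted by Benjamini-Hochberg over all genes, with calls at 0.05. For the 3 pairs among Flutamide, Hydroxyflutamide and Bicalutamide, p-values were also adjusted over all genes of the 3 pairs. The fit was tested on simulated data with independent noise in each array. For Flutamide against R1881 it recovered 22 of 50 changes of 0.5 on the log2 scale, 32 of 50 of 1, 42 of 50 of 1.5 and 46 of 50 of 2. The simulation held no expression profiles, no arrays that stood apart and no repeated controls, so it does not cover these features of the data. The profiles were 2 clusters (2-means) of the arrays on the 2000 most variable genes. The profile fit left out array 2 of Trenbolone, Spironolactone, Testosterone_propionate, MethylTestosterone and Apigenin and array 3 of Flutamide.

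Genes were named by rule: every gene called between Flutamide, Hydroxyflutamide and R1881 (at most 12 a direction, or 8 without Flutamide array 3), the genes R1881 raised, the AHR targets, and the called or leading 4 members of each other gene list. Cell markers such as FOXA1 and EPCAM, and KLK3, TMPRSS2, CES2, GAPDH and ACTB, were also named outside the rule and carry no mark. Other genes outside the rule are marked as chosen after their values were seen. Some within it, such as DDIT4, carry the same mark. The compounds, the lists and the profile fit were chosen with earlier results of these data known. Array numbers paired the R1881 and DMSO arrays (deviations of same-numbered arrays correlated at 0.722, 0.717 and 0.892), but not every pair with an array of the compounds passed 0.1, so the compounds' arrays were not treated as paired. R1881 and DMSO arrays 4 to 6 carry the numbers 1b to 3b in their titles, and whether they repeat arrays 1 to 3 is not settled. Same-numbered control arrays correlated at 0.9927 to 0.9977 in 5 of 6 pairs and at 0.9704 for R1881 arrays 2 and 5, and the other pairs at 0.9072 to 0.9826. The alternatives tried were other sets of arrays, array weights, a replicate block, averaged controls, other probe filters, cyclic loess, the mean of a gene's probes and the profile block with all arrays. The number of arrays limits the precision.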

Additional observations from a re-analysis of the deposited data

Results flagged for a closer look

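Of 50 groups of 6 control arrays examined for the genes called with all arrays, 2 held an array far from the others, and chance alone gives about 1 in 20. HPGD read 6.74 in DMSO array 1, the lowest of its group, with 6.88 as the nearest value. CT47A6 read 6.78 in the same array, the highest of its group, with 6.70 as the nearest value. Both levels lie in the middle of all probes.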

How the results depend on the processing

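No change called with all arrays reversed its sign under any alternative, but the number of genes called moved in every comparison. Calls of the profile fit could reverse. ID3 and GRB7 were called higher under Flutamide than under R1881 in it. With all arrays, ID3 averaged 9.489 under Flutamide against 9.966 under R1881, and GRB7 differed by -0.098. For Flutamide against R1881 it was 10 with all arrays and 6 to 226 when 1 array was left out (132, 226 and 6 without Flutamide array 1, 2 and 3). It was 62 in the profile fit, 43 with the profile block and all arrays, 29 without the 6 arrays apart, 29 with only the 5 groups, 57 with array weights, 5 with averaged controls and 65 with cyclic loess, where 13 were higher and 52 lower against 0 and 10. For Hydroxyflutamide against R1881, from 2, it was 1 to 24 with 1 array left out, 37 in the profile fit, 17 without the 6 arrays, 9 with the 5 groups, 359 with array weights, 1 with averaged controls, 1 with the stricter probe filter and 8 with loess. For Flutamide against Hydroxyflutamide, from 0, it was 0 to 14 with 1 array left out, 3 in the profile fit, 3 without the 6 arrays, 3 with the 5 groups, 15 with array weights and 1 with loess. For Flutamide against Bicalutamide, from 0, it was 0 to 18 with 1 array left out and 1 with array weights. For Hydroxyflutamide against Bicalutamide, from 0, it was 0 to 5 with 1 array left out, 2 in the profile fit, 2 without the 6 arrays and 2384 with array weights. For Flutamide against DMSO, from 1, it was 0 to 147 with 1 array left out, 2 in the profile fit, 0 with the 5 groups, 3 with array weights, 0 with averaged controls, 2 with loess and 0 with the mean of probes. For Hydroxyflutamide against DMSO, from 0, it was 0 to 9 with 1 array left out, 24 in the profile fit, 3 with the profile block and all arrays, 12 without the 6 arrays, 5 with the 5 groups, 399 with array weights, 7 with loess and 1 with the mean of probes. For R1881 against DMSO, from 23, it was 183 in the profile fit, 40 with the profile block and all arrays, 82 without the 6 arrays, 56 with the 5 groups, 166 with array weights, 5 with averaged controls and 60 with loess. The cause of these moves was not tested. The array weights stopped before reaching their tolerance, gave Flutamide array 3 a weight of 0.17 and Hydroxyflutamide array 1 a weight of 0.336.

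With the array number as a replicate block, Flutamide against R1881 gave 22 calls (7 higher and 15 lower), Hydroxyflutamide against R1881 gave 2, R1881 against DMSO gave 29, and Flutamide against DMSO gave 1. The block gave 0 for the other comparisons. Same-numbered Flutamide and Hydroxyflutamide arrays correlated at -0.607, 0.206 and -0.179 in their deviations, so the numbers do not pair them. Hydroxyflutamide arrays correlated at 0.628, 0.008 and 0.902 with the R1881 arrays of the same number (at most 0.505 with others) and at 0.603, -0.038 and 0.926 with those of DMSO (at most 0.555), so numbers 1 and 3 moved together and number 2 did not.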
